A study of Mus musculus with 8 samples.

Results

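The numbered Zfp genes are mostly mouse zinc finger genes, and here they comprise every gene on a pair of promoter arrays whose symbol is Zfp followed by digits only. They numbered 223 of 16908 genes, with 124 on the array that covers chromosomes 1 to 8 and part of 9 and 99 on the array that covers the rest. They were chosen by name, and the group was singled out because of its values on these same arrays, so its levels are given as a description with no test.

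The arrays measured where the transcription factor HoxB4 was recovered on DNA in blood progenitor cells made from mouse embryonic stem cells of the line B6N-22UTR. Embryoid bodies were grown for 6 days, c-Kit+CD41+ precursors were sorted, placed on OP9 stroma and infected with a retrovirus for HoxB4 carrying a 3xFLAG tag, and c-Kit+ cells were collected at day 12 of the co-culture. Chromatin immunoprecipitated with FLAG antibody (Cy5) was hybridised against input DNA (Cy3) after T7 amplification, on 1 array per probe set. There was no replicate, and no immunoprecipitation from cells without the tag was analysed here, so no promoter has an error between samples and the SD values below are spreads over neighbouring probes. The tagged protein was expressed from a virus, and the values describe that condition and not the cells' own HoxB4.

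HoxB4 is a homeobox protein known for expanding blood stem and progenitor cells, and homeodomains bind short AT-rich sites with a TAAT or TGAT core. Most numbered Zfp genes encode C2H2 zinc finger proteins, and many of those carry a KRAB domain that recruits the corepressor Trim28 to silence transposable elements and other targets. KRAB zinc finger genes arose by repeated local duplication and often lie side by side in clusters.

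The values are log2 ratios of immunoprecipitated over input signal, centred on the median of each array, so that 0 is the typical probe and 1 is a doubling. Each gene was given the highest median of 3 neighbouring probes, called its highest window, and the mean of the probes within 500 bp of its start where at least 2 probes lay there, called its start signal. Between 3 and 60 probes covered a member (median 26). A highest window could be computed for 220 members and a start signal for 210. Zfp119, Zfp120 and Zfp456 had no window, and of the 13 members without a start signal 5 had no probe and 8 had 1 probe within 500 bp. The arrays had 0 saturated probes, and about 95.3% of their probes were well above background.

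The promoters below show members with high and low signal. The first set holds the members with the highest start signals and a listed promoter, Zfp75 (RefSeq name Zfp317; chr9:19621841-19622140, plus strand), Zfp143 (chr7:110061452-110061751, plus strand) and Zfp408 (chr2:91649742-91650041, minus strand). Each is the RefSeq promoter in GRCm38.p6, from 250 bases before to 50 after the listed start, written 5′ to 3′ on the gene's strand with each CG dinucleotide in capitals. RefSeq lists 2 starts for Zfp75 and 2 for Zfp143, and the more upstream one is shown.
Zfp75: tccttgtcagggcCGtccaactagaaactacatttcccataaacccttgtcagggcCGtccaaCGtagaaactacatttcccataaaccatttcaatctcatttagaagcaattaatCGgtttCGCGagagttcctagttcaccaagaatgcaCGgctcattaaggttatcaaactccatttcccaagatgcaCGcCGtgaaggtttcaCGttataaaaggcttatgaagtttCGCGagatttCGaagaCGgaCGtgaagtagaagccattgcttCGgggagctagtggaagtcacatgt
Zfp143: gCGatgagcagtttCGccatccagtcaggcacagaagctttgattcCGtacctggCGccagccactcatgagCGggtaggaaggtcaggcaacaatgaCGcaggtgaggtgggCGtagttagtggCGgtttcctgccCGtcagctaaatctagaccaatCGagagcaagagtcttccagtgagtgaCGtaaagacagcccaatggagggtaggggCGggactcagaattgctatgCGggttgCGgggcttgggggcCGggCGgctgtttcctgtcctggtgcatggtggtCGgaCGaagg
Zfp408: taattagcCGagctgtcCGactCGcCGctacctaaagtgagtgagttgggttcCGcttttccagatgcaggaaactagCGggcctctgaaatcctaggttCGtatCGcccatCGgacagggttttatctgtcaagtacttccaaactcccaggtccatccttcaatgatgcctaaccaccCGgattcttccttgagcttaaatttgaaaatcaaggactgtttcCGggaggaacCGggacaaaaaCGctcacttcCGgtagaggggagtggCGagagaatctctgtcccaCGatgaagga
The second set pairs a member of high start signal with one of low start signal and the same number of CG dinucleotides. Zfp52 (chr17:21535289-21535588, plus strand) and Zfp811 (chr17:32809882-32810181, minus strand) hold 5 each.
Zfp52: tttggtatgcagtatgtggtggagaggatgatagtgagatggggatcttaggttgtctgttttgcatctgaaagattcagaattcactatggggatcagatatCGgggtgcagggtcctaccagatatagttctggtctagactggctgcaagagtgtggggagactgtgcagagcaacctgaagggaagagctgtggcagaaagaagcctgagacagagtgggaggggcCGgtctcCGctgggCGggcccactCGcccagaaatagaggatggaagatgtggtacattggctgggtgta
Zfp811: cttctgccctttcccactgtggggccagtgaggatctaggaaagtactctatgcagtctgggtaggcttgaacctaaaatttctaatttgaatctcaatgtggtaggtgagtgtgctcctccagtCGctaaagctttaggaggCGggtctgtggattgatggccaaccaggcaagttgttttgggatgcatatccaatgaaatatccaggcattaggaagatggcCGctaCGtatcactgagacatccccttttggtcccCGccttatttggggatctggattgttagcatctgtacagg
These 5 promoters were picked after their values had been seen. The start signal was 1.63 for Zfp52 against -0.88 for Zfp811, both on chromosome 17, so these promoters of equal CG count stood near opposite ends of the members' range. After the trend of the ratio with probe brightness was removed they stood at 1.23 and -0.70.

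As a group the members lay above the typical promoter, and the gap was at the gene start. The median start signal of the 210 members was 0.58 (quartiles 0.19 and 0.94), against 0.33 (quartiles -0.02 and 0.69) over 15827 genes. It was at or above 1 in 45 members (21.4%), where 11.6% of all genes reached that level, and it was above 0 in 173 members (82.4%, against 74.0% of all genes). The median highest window was 1.07 over 220 members and 0.89 over 16663 genes. The highest of many windows tends to lie above 0, and the median lowest window was -1.04 for members and -1.08 for all genes. A highest window at or above 1 was found in 118 members (53.6%, against 41.7% of all genes). One at or above 2 was found in 10 members (4.55%, against 2.89% of all genes). The members' input signal was also brighter within 500 bp of the start, with a median of 1042 against 977. Log ratios on these arrays moved with brightness, taken as the mean log2 signal of both channels and not as input alone. A raised immunoprecipitated signal also raises this mean, so removing the trend can take out part of an enrichment. With the brightness trend removed the median start signal was 0.34 for members and 0.20 for all genes, and the median highest window was 0.89 and 0.81. The excess was therefore smaller but of the same direction at the start, and a difference of 0.07 was left for the highest window. The part of brightness in the remaining difference was not tested, and neither was the part of enrichment in what was removed.

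**Figure D1:**
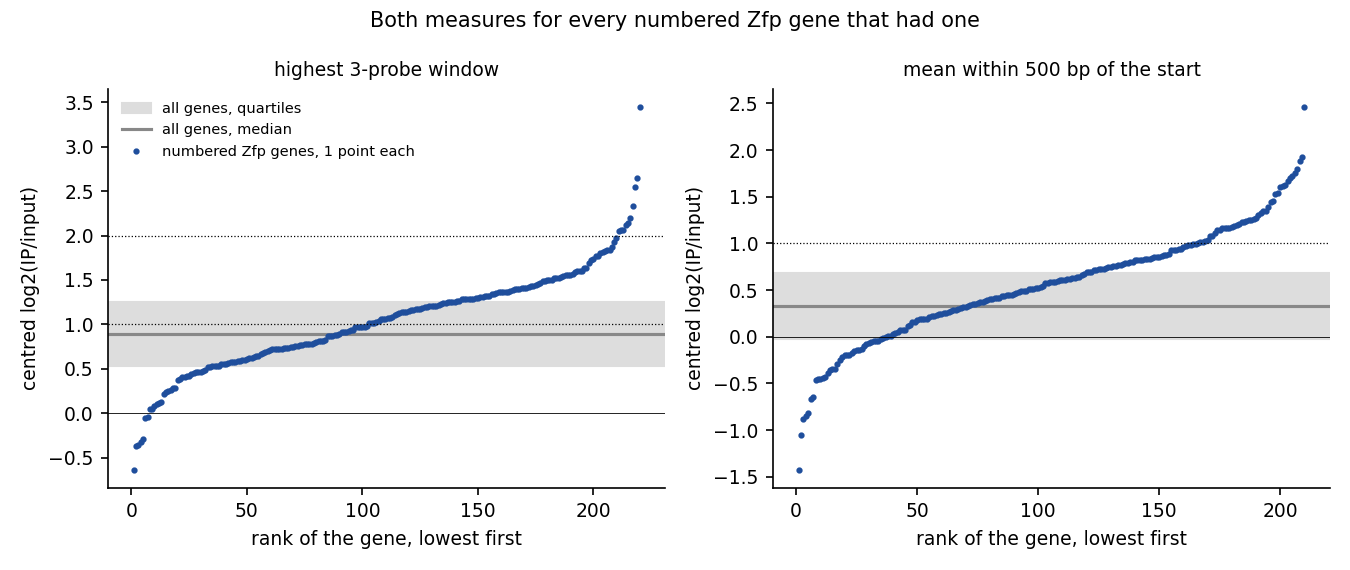
Every numbered Zfp gene is 1 point, ranked from lowest to highest, with the highest 3-probe window on the left and the mean within 500 bp of the start on the right (centred log2 of immunoprecipitated over input). The grey band and line are the quartiles and median of all genes, and dotted lines mark the levels of 1 and 2; Zfp75, at 3.44 and 2.46, is the topmost point in both panels.

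Both arrays gave similar start signals. Its median was 0.59 over 116 members on the first array and 0.58 over 94 on the second, against 0.35 and 0.32 for all genes there. The highest window differed more between arrays, at 1.17 and 0.92 for members against 0.92 and 0.86 for all genes.

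The difference was widest beside the start and reached further upstream than downstream. Averaged over genes, members stood at 0.33 between 500 and 250 bp upstream, 0.60 in the last 250 bp before the start, 0.72 in the first 250 bp after it and 0.51 from 250 to 500 bp. All genes stood at 0.10, 0.30, 0.43 and 0.34 in the same bins. Upstream the members were still higher, at 0.11 against -0.04 in the bin from -750 to -500 bp, 0.08 against -0.13 from -1000 to -750 bp and -0.08 against -0.21 from -1500 to -1000 bp. Downstream the averages met sooner, at 0.20 and 0.20 from 500 to 750 bp. In the far upstream bins the order varied, with -0.23 against -0.36 from -4000 to -3000 bp and -0.40 against -0.38 from -6000 to -4000 bp. The highest window was centred within 500 bp of the start in 115 members (52.3%), compared with 36.2% of all genes. After removal of the brightness trend the averages in the first 250 bp after the start were 0.46 for members and 0.26 for all genes, while those from -1500 to -1000 bp were -0.04 and -0.06. Downstream, members were then lower from 500 to 3000 bp (0.01 against 0.09 from 750 to 1000 bp) and higher from 3000 to 4000 bp (0.01 against -0.07).

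**Figure D2:**
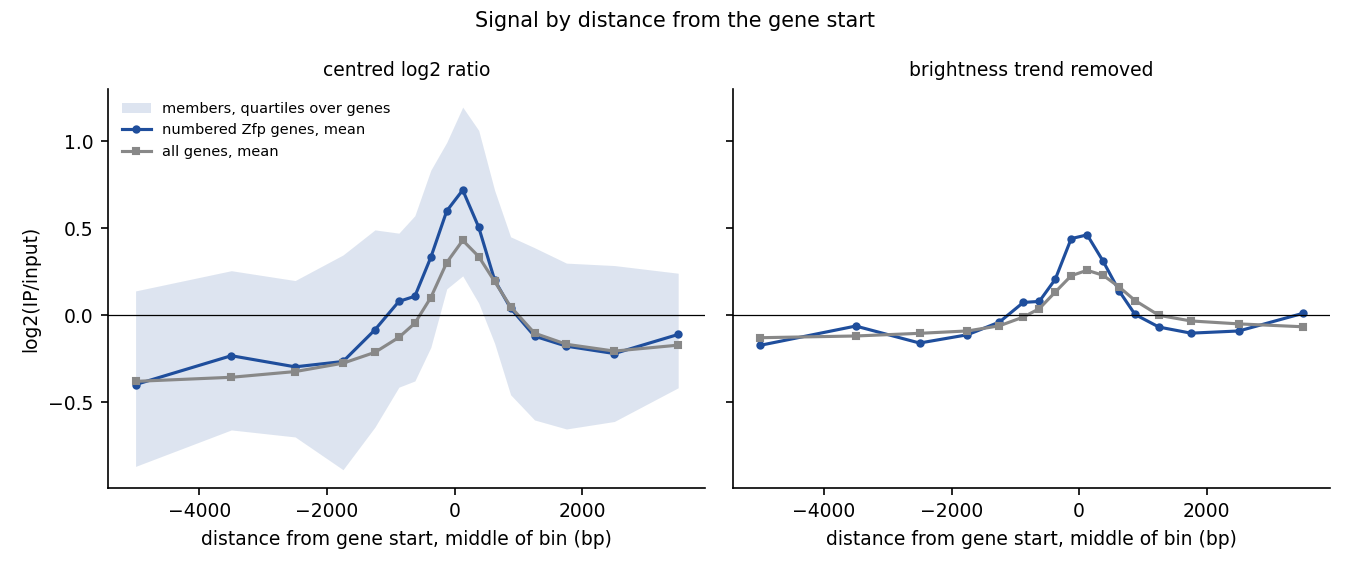
The mean log2 ratio per distance bin is drawn against the distance from the gene start in bp, for members (circles, with the quartiles over genes shaded on the left) and for all genes (squares). The left panel holds the centred ratios, peaking at 0.72 and 0.43, and the right panel the ratios after the brightness trend was removed, peaking at 0.46 and 0.26.

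Zfp75 had the highest signal of all members. This gene is now named Zfp317 in RefSeq. Its window lay at chr9:19372369-19372722 in the coordinates of the array files, and no header or label used here names their genome build. The probes at -134, 24 and 171 bp from the start read 3.44, 4.01 and 2.21, while the neighbours at -632 and 429 bp read 0.20 and 0.18. Further out the ratio fell below the array median, to -1.64 at -1157 bp and -1.99 at 1214 bp. The peak was thus carried by 3 probes, and the start signal over 4 probes was 2.46 ± 1.70 (SD over probes). Its highest window of 3.44 was the 4th highest of 16663 genes and its start signal the 10th of 15827. Without the brightness trend the window was 2.86 and the start signal 1.96, again first among the members.

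Zfp143 encodes a zinc finger activator of small nuclear RNA and many housekeeping promoters. Its window of 2.65 lay at chr7:109852630-109852997. Across its start the probes at -484, -382, -226, -83, 89 and 258 bp read 2.64, 1.43, 2.65, 3.24, 2.60 and 0.00, and the last within 500 bp, at 422 bp, read 0.89. Raised probes thus ran from -484 to 89 bp. The start signal was 1.92 ± 1.17 over 7 probes. Zfp91, a zinc finger protein with ubiquitin ligase activity in noncanonical NF-κB signalling, had its window of 2.54 further upstream, with probes at -608 and -497 bp at 2.54 and 2.72. Its signal stayed near 1.6 through the start, at 1.75, 1.63 and 1.64 for the probes at -119, 55 and 179 bp. Zfp408, a gene linked to retinal vessel development, had a single highest probe of 3.67 at -107 bp with 2.03 at -409 bp and 1.88 at 160 bp on either side, and a start signal of 1.89 ± 1.20 over 5 probes.

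The other members with a window at or above 2 were Zfp472 (2.34), Zfp689 (2.20), Zfp608 (2.12), Zfp95 and Zfp99 (2.06 each) and Zfp369 (2.05). In Zfp472 the raised probes were those at 66, 231 and 449 bp (2.34, 2.94 and 1.48), just inside the gene, while the 3 probes upstream of the start at -420, -246 and -123 bp read 0.36, 0.50 and 0.50. In Zfp689 the probes at -214, -73 and 33 bp read 2.75, 2.20 and 1.73. In Zfp369, which encodes an interactor of the p75 neurotrophin receptor, those at -475, -185 and 13 bp read 2.31, 1.86 and 2.05. Zfp608 had its raised probes upstream, with 2.12 and 2.22 at -591 and -489 bp, and dropped to -1.40 at 801 bp.

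Zfp95 and Zfp99, now Zkscan5 and Zkscan14, are neighbours on chromosome 5 and share 12 probes. Their window is the same piece of DNA, so the 10 genes at or above 2 rest on 9 windows. Its middle probe lay at -872 bp from the start of Zfp95 and -2488 bp from that of Zfp99. Zfp99 also had raised probes of its own at 28 and 154 bp (1.63 and 2.11), whereas Zfp95 read -0.45 and -0.24 at -166 and -44 bp. Of the 10 genes, 8 also had a start signal at or above 1. The others were Zfp95 at 0.41 and Zfp608 at 0.98. Both measures use the same probes where the window lies near the start. Their correlation was 0.73 (Pearson) across members and 0.73 across all genes. The overlap of 8 in 10 was not computed over all genes, so whether it is particular to the members is not known. Zfp369 (2.05) was the lowest above the level of 2 and Zfp523 (1.97) the highest below it. The window of Zfp523 lay 25166 bp inside the gene, and its start signal was 0.51.

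**Figure D3:**
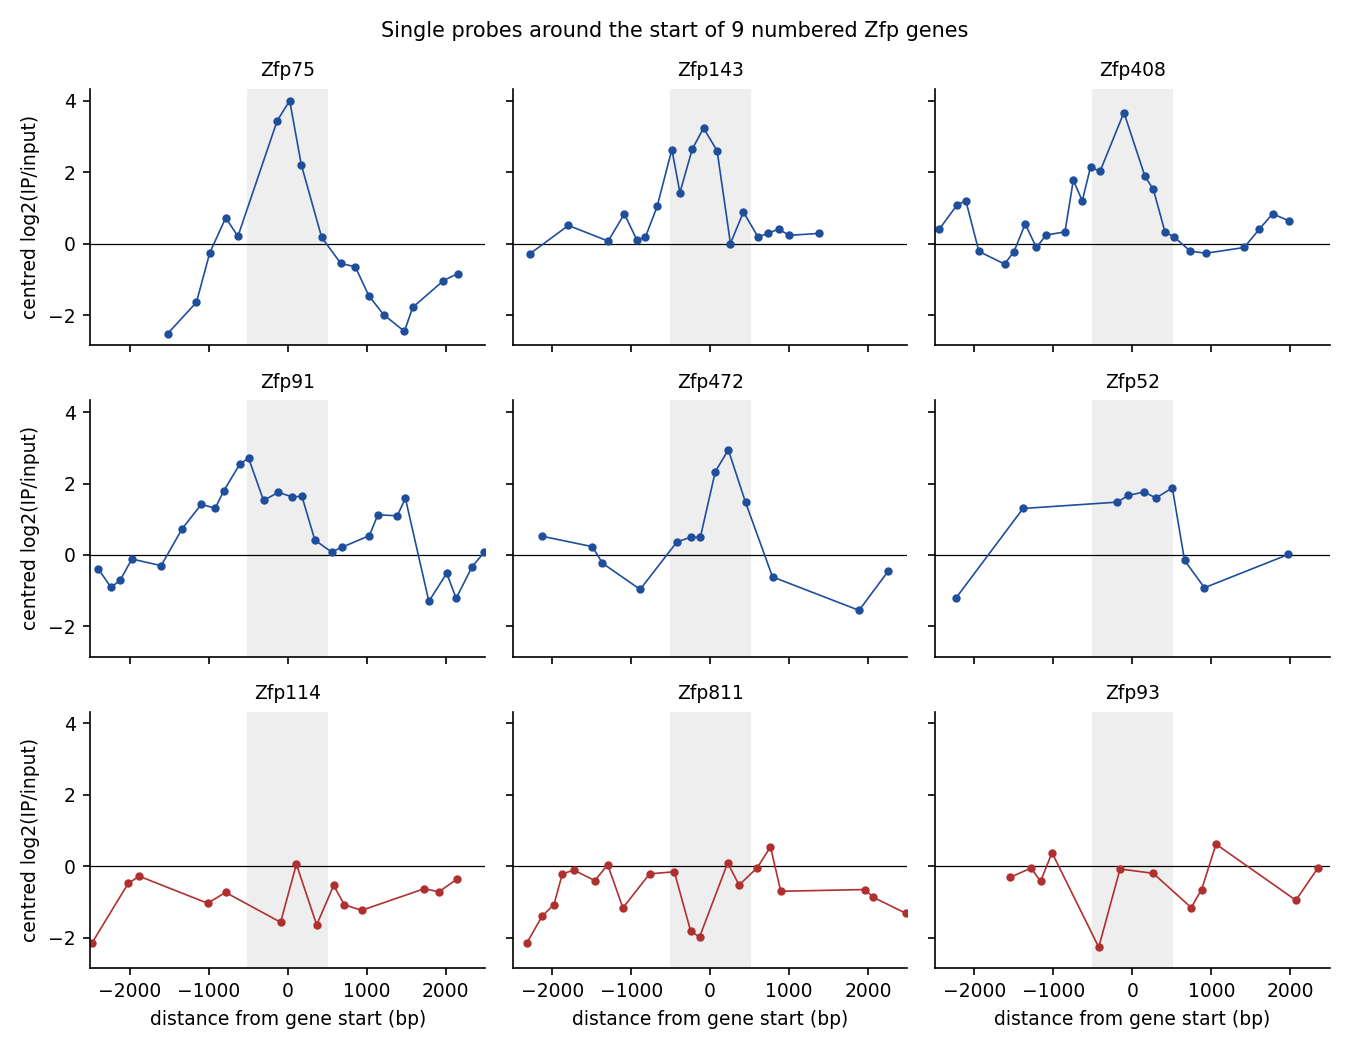
Single probes within 2500 bp of the start of 9 members are joined by lines, as centred log2 of immunoprecipitated over input against distance in bp; blue marks a positive and red a negative start signal, and the grey band is the 500 bp on either side of the start. Zfp75, Zfp143 and Zfp408 peak at 4.01, 3.24 and 3.67, Zfp52 is flat near 1.6 across its start, and most probes of Zfp114, Zfp811 and Zfp93 lie below 0.

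High start signals took different shapes. Zfp52 was even, with 1.48, 1.67, 1.77 and 1.59 at -190, -51, 151 and 298 bp (mean 1.63 ± 0.12 over 4 probes). Zfp60 was as even, with 6 probes between 1.46 and 1.90 and a mean of 1.70 ± 0.20. Zfp146, whose protein consists almost entirely of zinc fingers, had a start signal of 1.76 ± 0.49 over 5 probes with its highest probe, 2.39, at 248 bp. Among the remaining members of the highest 12, Zfp473, which acts in histone mRNA processing, had 1.79 from just 2 probes (2.70 and 0.89). Zfp445, a KRAB protein that guards genomic imprints, had 1.60 ± 0.64 and Zfp667 1.54 ± 0.62. The median SD over a member's probes within 500 bp was 0.53, so most neighbouring members in this order differ by less than the spread of their own probes. Of the 45 members at or above 1, 43 had every probe within 500 bp above 0 and 6 had every probe at or above 1. These shares were not computed over all genes at or above 1, so they describe no trait of the members. Zfp46 (1.00) was the lowest inside this level and Zfp62 (0.998) the highest outside it. For the window level of 1, Zfp646 and Zfp668, which share a window of 1.01, were just inside and Zfp575 (0.98) just outside.

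Low values were also found. The lowest start signals were those of Zfp287 (-1.43), Zfp114 (-1.05), Zfp811 (-0.88), Zfp93 (-0.85), Zfp187 (-0.82; now Zscan26) and Zfp654 (-0.67). Zfp287 rested on 2 probes, at 238 and 445 bp inside the gene (-1.72 and -1.13). In Zfp114 the probes at -91 and 366 bp read -1.57 and -1.64 with 0.06 between them at 109 bp, and in Zfp811 the pair at -245 and -133 bp read -1.82 and -1.98. Zfp93 owed its mean to 1 probe at -426 bp that was not well above background, and over its other 2 probes the mean was -0.14. Input near the start was dim for Zfp287 (375) and Zfp93 (441) and above the median of all genes for Zfp114 (1060). With the brightness trend removed, Zfp287 was at -0.47 and Zfp114 at -1.18.

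The 6 lowest highest windows belonged to Zfp109 (-0.64), Zfp758 (-0.37), Zfp114 (-0.36), Zfp563 (-0.32), Zfp235 (-0.29) and Zfp93 (-0.05). In these genes no stretch of 3 neighbouring probes had a median above that of the array. That depended on brightness: with the trend removed Zfp109, Zfp758, Zfp114, Zfp563 and Zfp235 read 0.44, 0.56, 0.29, 0.30 and 0.52, and Zfp93 read -0.01. A lowest window at or below -2 was found in 21 members (9.55%, against 11.5% of all genes). All 3 probes of the window were well above background in both channels in 6 of the 21, among which Zfp451 was lowest at -2.48; in the others at least 1 probe was not, so their values are not exact. Of the 21, 13 were upstream of the start, 7 downstream and 1 within 500 bp. Neither this split nor the 6 of 21 was computed over all genes, whose average ratio was also lower away from the start. With the trend removed 2 of 220 members (0.909%, against 0.576% of all genes) were at or below -2, 1 of them among the 21, and with normexp background correction 0 members and 0 genes were.

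Among members with well studied roles, high and low promoters were mixed. Zfp207, which protects the spindle checkpoint protein Bub3, had 1.51, 0.95, 1.84, 2.24 and 1.08 at -243, -92, 76, 217 and 486 bp and a start signal of 1.52. Zfp36 (tristetraprolin), a CCCH protein that degrades AU-rich mRNAs and not a C2H2 factor, had an even start signal of 1.14 ± 0.20 over 5 probes and a higher window of 1.82 at -3653 bp. Its mean over all 38 probes was 1.11, the highest of the members, so its start hardly stood above its surroundings. Zfp106, an RNA-binding protein needed by motor neurons, had a start signal of 1.16 ± 0.18. Zfp809, the KRAB protein that recruits Trim28 to murine leukaemia virus DNA, had 1.03 ± 0.55, and Zfp110, another interactor of the p75 neurotrophin receptor, had 1.46 ± 1.07. All of these were at or above 1. Zfp90 followed at 0.86.

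Other regulators stood near the median of all genes or below it. Zfp64 had 0.42, Zfp260 0.37, Zfp148 0.36 from 2 probes, Zfp219 0.28 and Zfp281, a pluripotency factor, 0.22. Zfp521, a cofactor of early blood and lymphoid progenitors, had 0.23 at the start and a highest window of 0.52. Zfp161, now Zbtb14, had 0.03. Zfp42 (Rex1), a marker of pluripotent cells, read -0.42, 1.04, -0.56 and -0.74 at -297, -47, 145 and 366 bp (mean -0.17), and Zfp57, which protects genomic imprints, read between -0.46 and -0.05 on all 5 probes (mean -0.25). With the brightness trend removed Zfp42 was at 0.28 and Zfp57 at -0.26. Zfp281 was then at -0.20, Zfp148 at -0.015, Zfp64 at 0.01 and Zfp219 at 0.02. The signs for Zfp42, Zfp281 and Zfp148 thus depended on this choice. Zfp568, Zfp217, Zfp335 and Zfp423 had no probe under these symbols and are not analysed here.

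Some members lie side by side. Runs of at least 5 members with neighbours at most 300 kb apart numbered 8 and held 62 members, and chromosome 7 alone held 59 of the 223 members, which were 4.01% of its 1471 genes. Start signals within a run differed widely. In the run on chromosome 17 near 21 Mb, Zfp52, Zfp54 and Zfp51 had 1.63, 1.31 and 1.02, while Zfp53 and Zfp760 had 0.21 and -0.0045. A second run on chromosome 17 held Zfp472 (1.35) and Zfp811 (-0.88). On chromosome 7, one run spanned Zfp146 (1.76) to Zfp30 (-0.65), another Zfp689 (1.67) to Zfp646 (-0.05), and others Zfp667 (1.54) to Zfp371 (-0.29) and Zfp110 (1.46) to Zfp329 (-0.21). The run on chromosome 13 was tighter, with a median of 0.69 over 9 members and Zfp273 (-0.14) the single negative value.

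The largest run, 12 members on chromosome 7 from Zfp180 to Zfp575, had the lowest median, -0.09 over the 8 members with a start signal. Zfp108 had 1.25, with probes of 1.49, 1.06, 1.68, 0.92 and 1.12 across the start, while Zfp114, Zfp93, Zfp109, Zfp428 and Zfp112 were below 0. The run's median was 0.25 with the brightness trend removed and 0.15 after a different background correction, and the other runs then lay between 0.12 and 0.80 and between 0.63 and 1.07, so its sign depended on the processing. Members in runs and outside them had median start signals of 0.64 (55 members) and 0.55 (155 members).

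**Figure D4:**
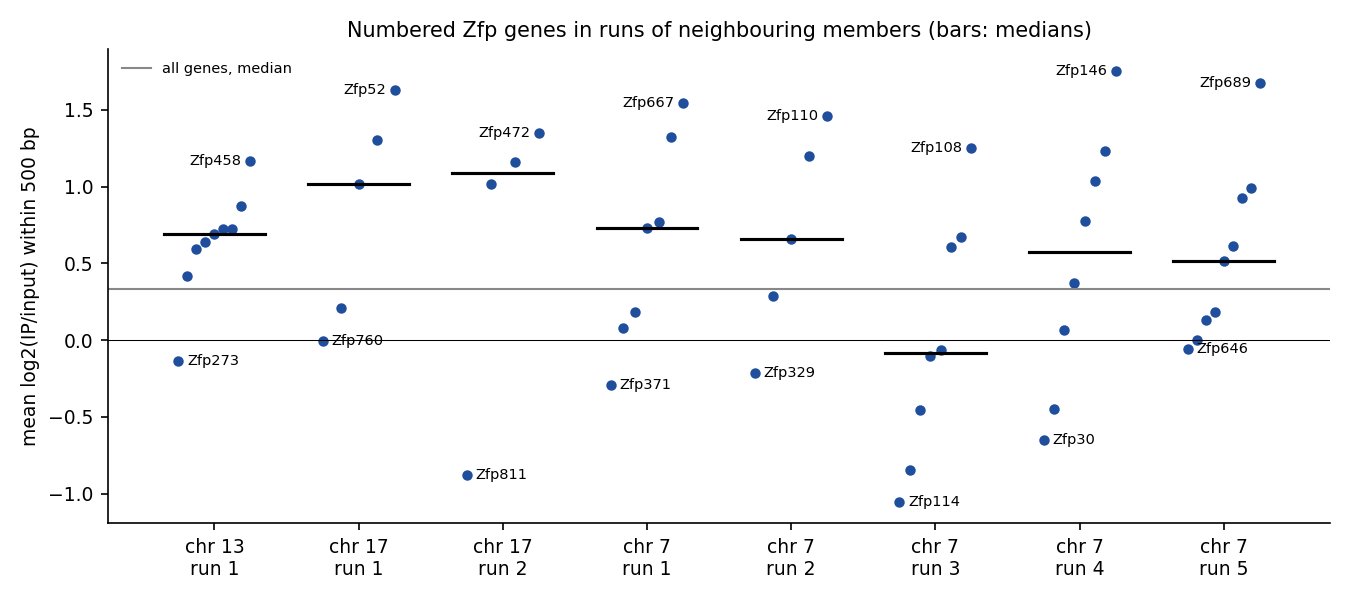
Each point is the start signal of 1 member (mean log2 ratio within 500 bp), grouped by the 8 runs of neighbouring members; black bars are run medians and the grey line is the median of all genes, 0.33. Runs hold high and low members together, such as Zfp146 at 1.76 and Zfp30 at -0.65.

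Promoter sequence was compared for the 138 members and 10709 genes with a single listed RefSeq promoter. The median CG count was 16 for both. Over all genes the start signal rose with CG count from a median of -0.24 at 0 to 4 CG to 0.57 at 15 to 24, and was lower again at 25 or more. The members' median was 0.02 at 0 to 4 CG (4 members), 0.63 at 5 to 14 (46 members, against 0.32 for all genes), 0.75 at 15 to 24 (57 members, against 0.57) and 0.33 at 25 or more (22 members, against 0.41). In the class of 5 to 14 CG, 16 of 46 members (34.8%) had a start signal at or above 1, compared with 13.6% of all genes in the class. Across genes the correlation between start signal and CG count was -0.03 over 129 members and 0.34 over 10022 genes, given as a description because genes on 1 array share its hybridisation and probe composition. The class of 0 to 4 CG held 4 of these 129 members and 2110 of these 10022 genes, so both figures do not span the same promoters. The difference in the class of 5 to 14 was 0.31, and 0.15 with the brightness trend removed and 0.44 after normexp background correction; at 15 to 24 it was 0.18, 0.12 and 0.02. It changed sign between these settings at 25 or more (-0.08, -0.10 and 0.18) and at 0 to 4 (0.25, -0.10 and 0.39).

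**Figure D5:**
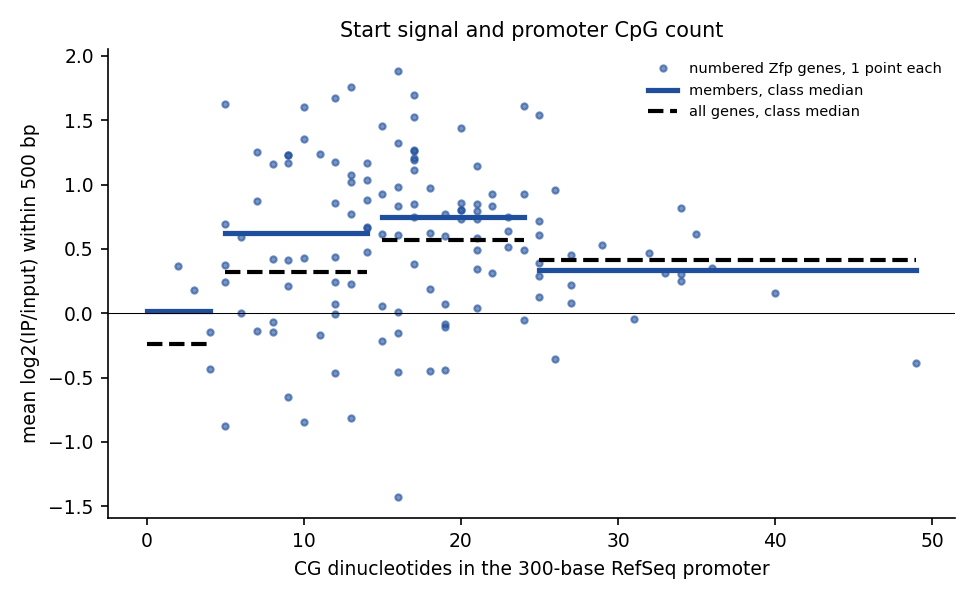
The mean log2 ratio within 500 bp of the start is plotted against the number of CG dinucleotides in the 300-base RefSeq promoter, with 1 point per member. Blue bars are member medians and dashed black bars the medians of all genes in each class, which differ most at 5 to 14 CG (0.63 and 0.32).

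Homeodomain core letters were about as common in member promoters as in others. TAAT, searched on both strands, was present in 70 of 138 member promoters (50.7%) and in 50.5% of all promoters, and TGAT in 70.3% and 66.9%. The longer TAATTA, which contains TAAT, was in 2.90% and 4.29%, and TGATTNAT, which contains TGAT, in 1.45% and 2.66%. These are letter matches in a 300-base window and not binding sites.

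Members with 1 or more probes classed as divergent promoter had higher start signals. Whether a member's own start was shared with another gene was not checked. The files class some probes as lying in a divergent promoter, and the 44 members with such probes had a median start signal of 0.82, against 0.52 for the 179 members without them (43 and 167 of them had a start signal). All genes showed the same order (0.54 and 0.29). Members had such probes in 19.7% of cases and all genes in 18.0%.

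Some array symbols are out of date. Of the 220 members matched to RefSeq by accession, 194 keep their symbol and 26 are renamed, 15 of them to Zbtb, Zscan or Zkscan names. A further 6 now bear names outside these families, namely Zfp179 (Rnf112), Zfp259 (Zpr1), Zfp289 (Arfgap2), Zfp313 (Rnf114), Zfp364 (Rnf115) and Zfp469 (Tnrc18), so the label covers a few genes that are not known as C2H2 factors. The 186 members that RefSeq still numbers Zfp and that have a start signal had a median of 0.61, and the 21 that it no longer does had 0.33.

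Other zinc finger genes on the same arrays were taken as lists by array symbol. Their median start signal was 0.38 for Zbtb genes (2 of 19 at or above 1), 0.14 for Klf and Sp genes (0 of 22), 0.33 for Zfp symbols ending in a letter (0 of 7) and 0.70 for Zscan and Zkscan genes (1 of 4). The genes of the KRAB corepressor machinery had 0.48 (2 of 16). None of the genes listed by array symbol had a highest window at or above 2, where 2.89% of all genes did. A start signal at or above 1 was found in 11.6% of all genes. With such shares, lists this short can hold few such genes or none. The Zscan and Zkscan list depends on the names used: 11 members are now named so in RefSeq, including Zfp95 and Zfp99 with their shared window of 2.06, and their median start signal was -0.03, with 6 below 0. Together with the 4 genes by array symbol the median was 0.24. With 4 to 22 genes a list, no difference between families was tested.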

How the data were processed

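Per the labels, a FLAG immunoprecipitate (Cy5) and input DNA (Cy3) were hybridised to 2 Agilent promoter arrays, 1 array per probe set (237195 and 237185 probes). The deposited scanner files hold probe intensity written by Agilent Feature Extraction 10.1.1.1, per the file headers; their processed signals are background-subtracted and dye-normalized by the authors' run of that program. The log10 ratios in its output and in the deposited value tables hold the same ratio, red over green, equal within 1e-05 for 99.98% and 99.97% of probes; the tables' medians (0.0181 and 0.0207 on the log10 scale) show that they are not centred. No header or label used here names the build of the probe positions.

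Log2 ratios were computed from the processed signals and centred on the array median, leaving out control probes and 19 and 38 outlier marks. Probes were assigned to genes by the symbols and distances in the files. Windows of 3 probes had starts at most 1000 bp apart; of equal medians, the window whose lowest probe was highest was used. The window search was tested on simulated data. With 1 array per probe set no test was possible. The alternatives were normexp background correction (limma 3.58.1, R 4.3.3, offset 50), removal of the brightness trend (lowess, span 0.3), the log10 ratio column, the value tables, no centring, other probe filters, window sizes, distances, levels and RefSeq names. The brightness trend was fitted against the mean log2 signal of both channels.

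The members, lists and alternatives were chosen with earlier results of these data known. Named members are the 12 highest and 6 lowest of each measure, those beside a fixed level, a fixed list with known roles, and the extremes of each run; Zfp51, Zfp54, Zfp112, Zfp428, Zfp180, Zfp451 and renamed members were named after their values were seen. RefSeq promoters come from GRCm38.p6. The 6 expression arrays were not used, because no table given here pairs their probe sets with genes.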

Additional observations from a re-analysis of the deposited data

How the results depend on the processing

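With the brightness trend removed the median start signal was 0.34 for members (0.20 for all genes), 21 members (10.0%, against 4.67% of all genes) had a start signal at or above 1, and 3 (1.36%, against 1.09%) a window at or above 2. With normexp correction 19 members (8.64%, against 4.40%) had a window at or above 2, of which 8 were among the 10 of the first analysis. With medians over 5 probes the median highest window was 0.80 (0.69 for all genes) and 3 members (1.37%, against 1.04% of all genes) reached 2; probes within 1000 bp of the start left 21 members at or above 1 (9.68%, against 5.72%). At other levels, 118 members had a window at or above 1 and 39 at or above 1.5 (17.7%, against 13.4%), and 115 a start signal at or above 0.5 (54.8%, against 37.0%). Leaving out members in runs, an alternative chosen after seeing the data, left 29 of 155 at or above 1 (18.7%). Under the other alternatives run for these 4 results, the medians moved by less than 0.24, the typical standard error of a start signal over its probes, and the counts stayed within a factor of 1.5. That error is for 1 gene and not for a median over members. Members exceeded all genes by 0.25 in median start signal and by 0.18 in median highest window, so this yardstick cannot show that the differences were stable. With the brightness trend removed the difference in median highest window was 0.07. Across named members and alternatives, 939 of 1018 values moved by less than the SD of the probes they rest on and 79 by more. The 1018 include alternatives that could hardly move a value, such as the log10 ratio column and the value tables, which hold the same ratio. The pooled count is therefore no measure of stability. Of the 79, 30 came with the brightness trend removed, 22 with normexp correction and 13 with medians over 5 probes. Zfp75 stayed first among members in both measures under every scaling and probe filter run. No paired analysis was possible because each probe set was hybridised once. The planned fit of the expression arrays was not run, because no table given here pairs probe sets with genes. Depth is not defined for arrays; with 1 array per probe set, the precision of a promoter's value is known solely from its neighbouring probes.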
